A study of Homo sapiens with 4 samples.

Results

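The heterogeneous nuclear ribonucleoproteins (hnRNPs) were followed in H1299 cells exposed to mercury chloride, transcript by transcript. The 30 member genes were the HNRNP genes from HNRNPA0 to HNRNPUL2, SYNCRIP, RALY, the PTBP, PCBP and FET genes (TAF15 and EWSR1) and TARDBP, and all of their transcripts were taken while pseudogenes were left out. They had 433 of the 227368 transcripts in the tables, of which 94 had a count, in 29 genes. Of these, 60 transcripts of 24 genes had an FPKM whose mean exceeded 1 in EtOH, in HgCl2 or in both, and so entered the fit, against 17547 in all, and 38 of them had a mean of at least 30 counts over the columns and are called well-counted here.

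H1299 is an established human line from a non-small-cell lung carcinoma. Poly-A RNA of cells given 5 μM HgCl2 for 48 h was compared with that of cells given the solvent alone, 0.6% EtOH, with 2 columns of values a group. The treatment text in the labels gives 5 μM for all 4 samples. The control cells are taken here as free of HgCl2, as the methods describe them. The cells carry no engineered allele, and both groups are 1 line.

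Among the marker genes, VIM, an intermediate filament of mesenchymal-like cells, had between 501 and 628 counts a column and NRAS, which carries the activating mutation of this line, between 5305 and 6213. The keratin KRT8 had 53 and 58 counts under EtOH but 4 and 4 under HgCl2, and KRT18 had 18 to 31. Markers of leukocytes (PTPRC), hepatocytes (ALB) and alveolar type II cells (SFTPC) had 0 counts, and the fibroblast collagen COL1A1 had 13 and 18 counts in EtOH and 3 and 4 in HgCl2. KRT8 and COL1A1 were thus lower in both HgCl2 columns, and their part in the results was not tested.

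hnRNPs bind nascent pre-mRNA in the nucleus, package it and steer splicing, polyadenylation, export and stability. Many recognise short motifs in introns, so that the same protein can favour an exon at one gene and repress it at another. Several control their own amount by binding their own pre-mRNA and leading it into intron retention or into an isoform that is degraded.

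Total counts lay between 4720978 and 5053120 a column, and mitochondrial transcripts took 24.8% of them in EtOH and 17.9% in HgCl2. The columns of a group differed by less than sampling noise. Among transcripts with at least 20 counts, the variance between the EtOH columns was 0.505 of the counting noise and between the HgCl2 columns 0.516, and for the hnRNP transcripts it was 0.523 and 0.528. Each group was therefore counted as 1 sample, and no value here has a replicate check or a p-value. Statements below on where the columns lie describe the counts and are no such check. A call is a log2 fold change of at least 1 in size in edgeR with TMM scaling, which means at least 2-fold, and intervals are 95% exact Clopper-Pearson intervals that cover counting error only. Such calls describe these libraries.

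hnRNP transcripts held 22775, 22503, 25006 and 24863 counts in the order EtOH replicates 1 and 2 and HgCl2 replicates 1 and 2, an order kept for all values here. This was 0.451% and 0.445% of all counts in EtOH and 0.529% and 0.527% in HgCl2. Of the counts outside the mitochondrial transcripts they took 0.596% in EtOH and 0.643% in HgCl2. In bulk RNA, a change in the number of cells of a kind and a change in RNA per cell cannot be told apart.

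Which hnRNP transcripts had counts went with how much of their sequence was theirs alone. Of the hnRNP transcripts with at least 150 bases that no other listed transcript covers, here called own bases, 63 of 84 had a count (75%), against 35.3% of such transcripts overall. Of those with 0 own bases, 8 of 277 did (2.89%). The Ensembl canonical transcript, usually the main coding form, was listed for 28 of the genes. It had counts in 7 of 7 genes where it has at least 150 own bases and in 2 of 21 others. For HNRNPL, HNRNPK, HNRNPH1, EWSR1, HNRNPU and PTBP1 the canonical transcript has 0 own bases and 0 counts. The transcripts with 0 own bases nevertheless held 28.4% of the hnRNP counts (1.67% over all transcripts), most of it on HNRNPA3 ENST00000411529, and those with under 150 own bases held 7.71%. A value below is that of a transcript, not the level of a gene or of its protein.

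The classes reflect this. Of the 433 listed transcripts, 240 are protein-coding, 94 are retained introns (RNAs that keep an intron and have no annotated coding sequence), 63 are predicted targets of nonsense-mediated decay and 36 are of other kinds. Of the 60 that were tested, 30 are retained introns (50%, against 22.9% of all tested transcripts) and 23 protein-coding. Retained introns held 15.8% of the hnRNP counts and 3.66% of all counts.

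Summed over all transcripts of a gene, few hnRNP genes stood past 2-fold. Of the 24 genes with a tested transcript, 1 was higher in HgCl2 (RALY) and 3 were lower (HNRNPAB, HNRNPM and HNRNPUL1). The call of HNRNPAB rests on 5, 5, 0 and 0 counts, and its interval reaches up to 0.27. Over all 11520 genes, 14.5% were higher and 28.9% were lower. Of the 21 hnRNP genes with a mean sum of at least 30 counts, 0 were higher and 1 was lower (HNRNPUL1), where the background was 11.1% and 9.44%. The median log2 fold change of these 21 sums was 0.21, against 0.16 for all 6398 sums of that size. The sums of HNRNPL (0.99), HNRNPH3 (0.76), HNRNPK (0.73) and HNRNPA1 (0.72) had the highest values short of the threshold.

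**Figure D1:**
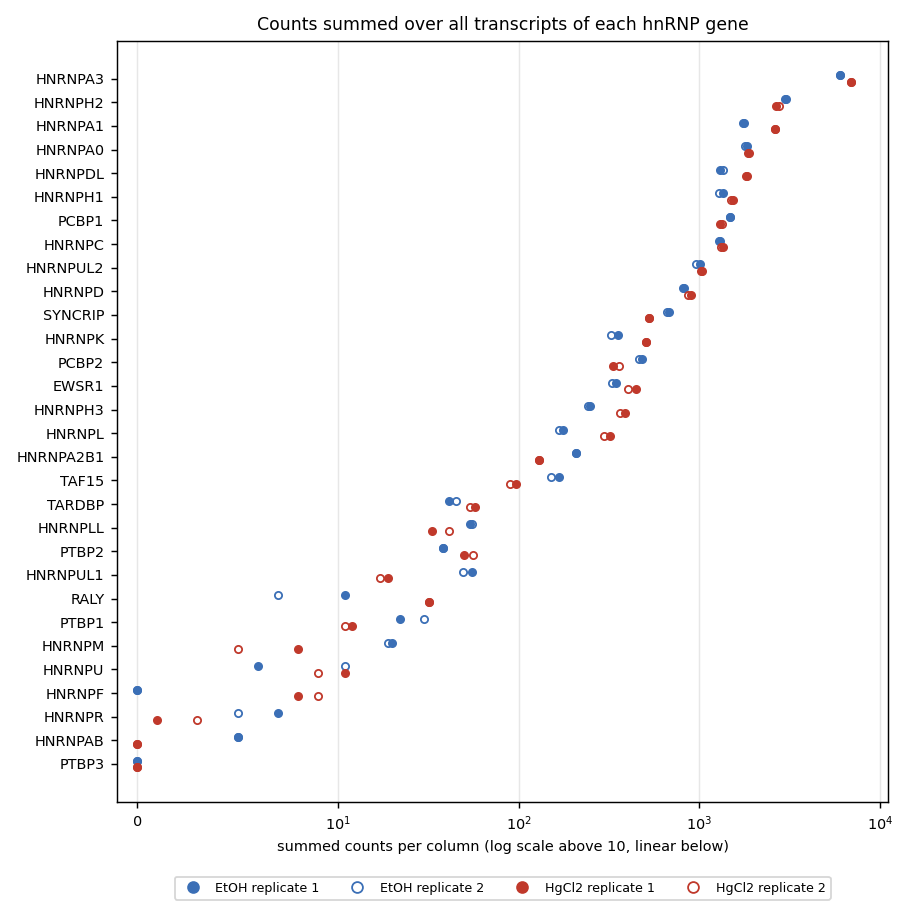
Counts summed over all transcripts of each of the 30 hnRNP genes (y axis) in each column (x axis, counts, log scale above 10 and linear below), with EtOH in blue, HgCl2 in red, replicate 1 filled and replicate 2 open. HNRNPA3 had 6019 to 6925 counts and PTBP3 had 0 in every column, and HNRNPA1, HNRNPL and HNRNPK lay to the right in both HgCl2 columns.

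Of the 60 tested hnRNP transcripts, 6 rose (10%) and 13 fell (21.7%), against 19.2% and 34.1% of all tested transcripts. The filter admits a transcript through either group, so one counted in a single group is past 2-fold by construction. Of the 38 well-counted ones, 3 rose (7.89%) and 2 fell (5.26%), against 15.5% and 9.53%. Both directions were thus called in a smaller share of the hnRNP transcripts than of the tables as a whole, with no test of that difference. The median log2 fold change of the 60 was 0.15, against -0.21 over all tested, and 0.05 without the column EtOH replicate 2. That of the 38 was 0.31, against 0.21 over all well-counted ones.

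Taken by class, 16 well-counted hnRNP transcripts are retained introns, of which 2 rose and 1 fell. The background for retained introns was 32.5% higher and 6.7% lower, and the medians were 0.48 for the hnRNP genes and 0.59 for all. Of 19 well-counted protein-coding hnRNP transcripts 0 rose and 1 fell, against 9.48% and 8.51%, and the medians were 0.21 and 0.14. On the deposited FPKM scale, as log2 of the ratio of FPKM plus 1, the median of all tested transcripts was -0.03 instead of -0.21. By that measure 8 hnRNP transcripts rose and 6 fell, against 16.9% and 19.3% of all tested. With a pseudocount of 0.1 in place of 1, 9 rose and 10 fell, against 21.9% and 30.3%, so the pseudocount moves the number of falls along with the scale.

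**Figure D2:**
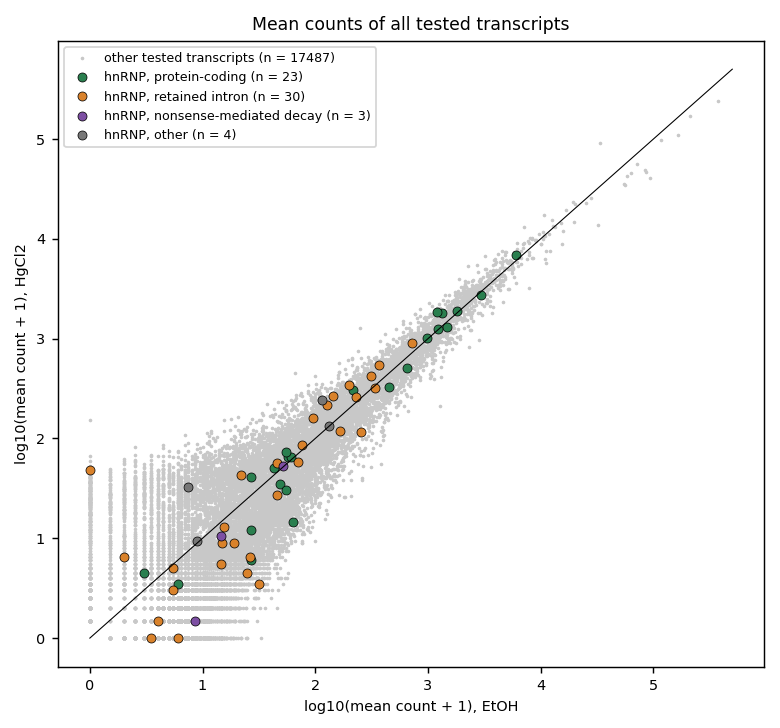
Mean count plus 1 of each tested transcript in EtOH (x axis) and HgCl2 (y axis), both as log10, with the 60 hnRNP transcripts coloured by class over the other tested transcripts in grey and a line of equal counts. The hnRNP transcripts lie within the cloud of the others, and the retained intron of HNRNPC at 0 counts in EtOH stands at the left edge.

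**Figure D3:**
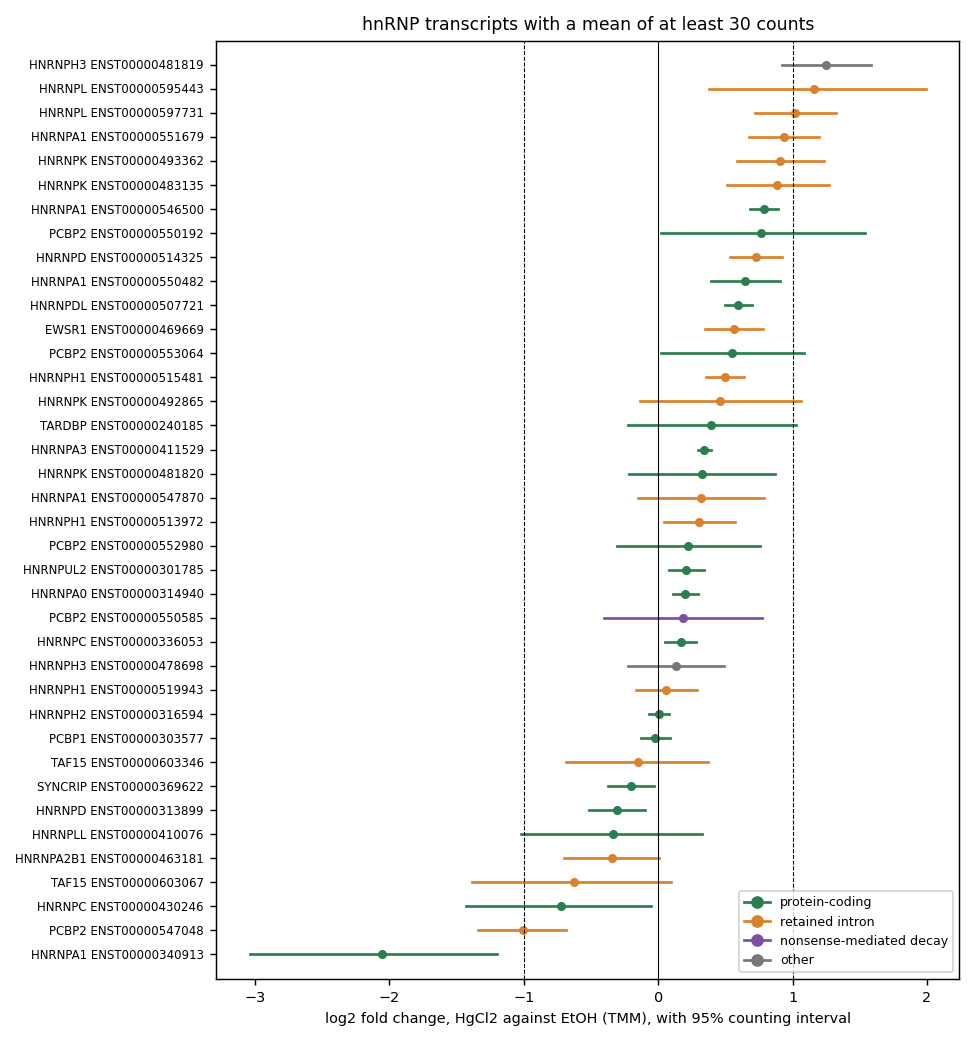
Log2 fold change of HgCl2 against EtOH (x axis, TMM scaling) of the 38 well-counted hnRNP transcripts (y axis), with bars for the 95% counting interval, colours for the class and dashed lines at 2-fold. Past the right line lie 3 transcripts, HNRNPH3 ENST00000481819 and both of HNRNPL, and past the left line lie 2, PCBP2 ENST00000547048 and HNRNPA1 ENST00000340913.

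HNRNPL, which binds CA repeats and is known to repress or activate exons beside them, had counts on retained introns only, in both groups. ENST00000597731, with 579 own bases in intron 6 of the canonical transcript, had 149, 139, 275 and 254 counts. It rose with a log2 fold change of 1.02 (0.72 to 1.32). ENST00000595443, with 649 of its 1252 own bases in intron 8, had 21, 21, 43 and 42 counts and rose by 1.16 (0.37 to 1.99). The HgCl2 columns were above the EtOH columns for both, but both stand close to the threshold. The first was at 0.97 with scaling to total counts and at 0.91 with a filter of a mean of at least 10 counts, and it was short of 2-fold without EtOH replicate 2 or HgCl2 replicate 1. The second was at 0.99 on the FPKM scale.

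The middle 120 bases of the longest own stretch of each are shown because both contain a CA repeat of the kind HNRNPL binds, in capitals, with a TG repeat also in capitals in the second. Sequences here are of the genome build GRCh38 (hg38), written 5′ to 3′ on the strand of the gene.
HNRNPL ENST00000597731, chr19:38841979-38842098, minus strand: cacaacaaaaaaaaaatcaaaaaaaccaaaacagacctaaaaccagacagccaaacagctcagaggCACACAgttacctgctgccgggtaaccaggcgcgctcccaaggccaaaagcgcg
HNRNPL ENST00000595443, chr19:38839280-38839399, minus strand: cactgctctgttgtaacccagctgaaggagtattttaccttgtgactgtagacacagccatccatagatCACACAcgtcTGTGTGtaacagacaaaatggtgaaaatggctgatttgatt
The hexamer CACACA was in these windows for 3 of 22 hnRNP retained introns (13.6%), the third being EWSR1 ENST00000485037, against 3.53% of 3515 tested retained introns with a window of that length. A match in a window is a description and not a binding site. The relative HNRNPLL, known for the splicing of CD45 in lymphocytes, had 47, 48, 30 and 38 counts on ENST00000410076, with a log2 fold change of -0.34 (-1.02 to 0.33).

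The A and B proteins are the most abundant hnRNPs of most nuclei and bind UAGG-like elements. HNRNPA1 had 1742, 1768, 2619 and 2611 counts in sum, with a log2 fold change of 0.72 (0.63 to 0.81). Its transcripts did not move together. The coding transcript ENST00000546500, with 511 own bases in its 5′ UTR, had 1190, 1190, 1854 and 1863 counts and a log2 fold change of 0.79 (0.68 to 0.89). The retained intron ENST00000551679, with bases of intron 8, had 192, 201, 360 and 320 counts and 0.93 (0.68 to 1.20). On the FPKM scale its value was 1.10, past the threshold. In contrast, the canonical transcript ENST00000340913 fell, with 59, 66, 13 and 14 counts and a log2 fold change of -2.06 (-3.04 to -1.20).

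All 156 own bases of that canonical transcript are a single coding exon, exon 8 of 11, which no other listed transcript covers. Its counts may thus follow the use of that exon and are not a measure of the main HNRNPA1 mRNA. The canonical transcript held 3.56% of the counts of HNRNPA1 in EtOH and 0.516% in HgCl2. HNRNPA1 has many processed pseudogenes of similar sequence, and how reads that match both were counted is not known, so its values are uncertain. Pseudogenes named after it had 13080, 13005, 8895 and 9066 counts, more than the gene, and their log2 ratio was -0.39, opposite in sign to that of the gene. Their part in the values of HNRNPA1 was not tested.

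HNRNPA3, whose counts were all on ENST00000411529, had 6019, 6019, 6906 and 6925 counts and a log2 fold change of 0.34 (0.29 to 0.39). This transcript has 0 own bases in the annotation used here, a later release than that of the counting, and pseudogenes of HNRNPA3 had a further 3643, 3565, 3494 and 3557 counts. HNRNPA0, an intronless gene with 8713 own bases, had 1826, 1779, 1889 and 1865 counts and 0.20 (0.11 to 0.30).

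HNRNPA2B1, which also reads methylated adenosines and sorts microRNAs, was lower in sum in both HgCl2 columns, with 207, 208, 130 and 129 counts and a log2 fold change of -0.53 (-0.86 to -0.21). Its leading transcript, the retained intron ENST00000463181, had 163, 164, 117 and 116 counts and -0.35 (-0.70 to 0.01). Like that of HNRNPA3, ENST00000463181 has 0 own bases in the annotation used here. The coding HNRNPA2B1 transcript ENST00000608362, with 1726 own bases in its 3′ UTR, fell from 23 and 29 to 5 and 5 counts, with a log2 fold change of -2.21 (-3.97 to -0.83). It has a mean under 30 counts and, like ENST00000514332, ENST00000547987, ENST00000555585, ENST00000488227 and ENST00000604434 below, was chosen after its values were seen. HNRNPAB had 5, 5, 0 and 0 counts, all on a retained intron. With HgCl2 set at 3 counts it was 1.51-fold lower, but its counting interval reaches up to a log2 fold change of 0.27.

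HNRNPD (AUF1) binds AU-rich elements and sets the decay of many short-lived mRNAs. Its sum was 823, 810, 899 and 859 counts, with a log2 fold change of 0.25 (0.11 to 0.39), but its transcripts differed in sign. The retained intron ENST00000514325, with 2483 own bases of which 1214 lie in intron 4, had 362, 369, 568 and 527 counts and 0.73 (0.53 to 0.92). The canonical coding transcript ENST00000313899, with 1331 own bases in its 3′ UTR, had 461, 441, 330 and 331 counts and -0.30 (-0.51 to -0.10). Neither passed 2-fold, and the column values of the groups did not overlap for either.

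Within HNRNPD the retained intron thus held 44.8% of the counts in EtOH (41.3 to 48.2) and 62.3% in HgCl2 (59.0 to 65.5), a mix that does not depend on the scaling between the groups. The middle of its longest own stretch is shown to identify this transcript, without capitals since none of the U-tract, CA or UG repeats is in it.
HNRNPD ENST00000514325, chr4:82357992-82358111, minus strand: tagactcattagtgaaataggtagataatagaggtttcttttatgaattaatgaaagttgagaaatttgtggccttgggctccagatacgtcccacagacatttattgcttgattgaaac
HNRNPDL, the closest relative of HNRNPD, had counts on ENST00000507721 alone, which has 679 own bases in its 3′ UTR that lie in an intron of the canonical transcript. It had 1301, 1355, 1837 and 1798 counts and a log2 fold change of 0.60 (0.49 to 0.70), with both HgCl2 columns above both EtOH columns.

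HNRNPC and RALY are related proteins that bind uridine tracts, and HNRNPC is known to keep cryptic exons out of mRNA. The main HNRNPC transcript ENST00000336053 had 1240, 1211, 1263 and 1228 counts and a log2 fold change of 0.17 (0.05 to 0.28), with overlapping columns. A retained intron of the gene, ENST00000555585, had 0, 0, 50 and 45 counts. With EtOH set at 3 counts, HgCl2 was 17.5-fold higher, and the counting interval of the log2 fold change starts at 3.77. The second coding transcript ENST00000430246 had 51, 57, 32 and 27 counts and -0.73 (-1.43 to -0.06).

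The retained intron held 302 own bases, all in intron 5 of the canonical transcript. Their middle is shown because the transcript had 0 counts in EtOH, and a run of 5 T, the kind of tract that HNRNPC binds, is in capitals.
HNRNPC ENST00000555585, chr14:21213209-21213328, minus strand: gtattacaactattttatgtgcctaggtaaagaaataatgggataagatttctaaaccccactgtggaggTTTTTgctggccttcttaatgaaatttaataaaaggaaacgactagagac
Such a run was present in the windows of 9 of 22 hnRNP retained introns (40.9%) and of 39% of all 3515, so the tract is a common feature. Retained introns made up 0.349% of the HNRNPC counts in EtOH (0.105 to 0.848) and 3.95% in HgCl2 (2.97 to 5.14). HNRNPC pseudogenes had 817, 828, 784 and 782 counts. RALY was counted mostly on a short transcript without coding sequence, ENST00000488227, which had 9, 4, 32 and 32 counts and rose by 2.42 (1.20 to 3.93). The sum over RALY transcripts was 11, 7, 32 and 32 counts, with a log2 fold change of 1.96 (0.88 to 3.23).

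HNRNPF and the HNRNPH proteins bind runs of guanines. The largest rise among well-counted hnRNP transcripts was that of HNRNPH3 ENST00000481819, with 110, 117, 254 and 234 counts and a log2 fold change of 1.25 (0.92 to 1.58). It has no defined coding sequence and its 393 own bases lie in intron 1 of the canonical transcript, where it starts. The other counted HNRNPH3 transcript, ENST00000478698, had a log2 fold change of 0.13 (-0.23 to 0.49). Their intervals do not overlap, so the transcripts of the gene changed unequally within the same columns. The share of the first in the HNRNPH3 counts was 46.2% in EtOH and 65.1% in HgCl2. The middle of the own bases of the transcript that rose is shown here.
HNRNPH3 ENST00000481819, chr10:68336942-68337061, plus strand: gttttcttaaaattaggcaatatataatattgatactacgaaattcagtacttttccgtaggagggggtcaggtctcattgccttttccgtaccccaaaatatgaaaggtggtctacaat

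HNRNPH1 was counted almost only on retained introns, which held 99.4% of its counts in each group. Its leading one, ENST00000515481, with 586 of its 1317 own bases in intron 13, had 715, 716, 913 and 913 counts and a log2 fold change of 0.50 (0.35 to 0.64). The lesser ENST00000514332, which has 0 own bases, fell, with 31, 20, 6 and 5 counts and -2.05 (-3.72 to -0.71). HNRNPH2, an X-linked gene nearly identical to HNRNPH1 in its protein, had 2999, 2969, 2665 and 2749 counts on its canonical transcript ENST00000316594. Its log2 fold change was 0.00 (-0.07 to 0.08) with TMM scaling, 0.18 on the FPKM scale and -0.04 with total counts, so its sign depends on the scaling. HNRNPF had 0, 0, 8 and 9 counts, all on transcripts under the filter.

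HNRNPK and the PCBP proteins share the KH domain and bind C-rich RNA. HNRNPK, a regulator of both transcription and translation, had 352, 323, 505 and 507 counts in sum and a log2 fold change of 0.73 (0.53 to 0.93). Its retained introns ENST00000493362 (intron 15) and ENST00000483135 (intron 5) had 0.91 (0.58 to 1.23) and 0.89 (0.51 to 1.27), with counts of 129, 125, 222 and 209 for the first and 92, 98, 160 and 158 for the second. The HgCl2 columns were higher for both, though short of 2-fold under TMM scaling. On the FPKM scale these values were 1.06 and 1.03, past the threshold. Retained introns held 83.4% of HNRNPK counts in EtOH (79.0 to 87.2) and 87.5% in HgCl2 (84.2 to 90.2), intervals that overlap.

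PCBP2, which stabilises mRNAs and is used by picornaviruses to translate their RNA, ran the other way. Its retained intron ENST00000547048, with 624 of its 706 own bases in intron 12, had 256, 253, 115 and 114 counts and fell, with a log2 fold change of -1.01 (-1.34 to -0.69). This call lies at the threshold, with -0.97 in DESeq2 and -0.79 on the FPKM scale. Without the column EtOH replicate 1 it was just short of 2-fold, and the count of well-counted hnRNP transcripts that fell was then 1. The coding transcripts ENST00000553064 and ENST00000550192 had log2 fold changes of 0.55 (0.02 to 1.09) and 0.76 (0.02 to 1.54).

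Within PCBP2, retained introns held 59.5% of the counts in EtOH (55.0 to 64.0) and 34.2% in HgCl2 (29.2 to 39.4), while protein-coding transcripts went from 29.8% to 50.8%. The own bases of the counted coding transcripts also lie in introns of the canonical transcript. These are 1202 bases for ENST00000553064, 342 for ENST00000552980 and 335 for ENST00000550192. The coding share is thus not a measure of the canonical spliced mRNA, which had 0 counts. The sum of the gene was 482, 462, 332 and 359 counts, with a log2 fold change of -0.30 (-0.51 to -0.10). A lesser transcript, ENST00000547987, fell from 24 and 24 to 5 and 2 counts. Pseudogenes of PCBP2 had 92, 69, 35 and 37 counts. The middle of the longest own stretch of ENST00000547048 is shown as that of the transcript behind this shift, with its T runs in capitals.
PCBP2 ENST00000547048, chr12:53468096-53468215, plus strand: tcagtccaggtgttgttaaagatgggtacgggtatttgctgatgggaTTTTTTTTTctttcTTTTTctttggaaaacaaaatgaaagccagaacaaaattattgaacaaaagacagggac
PCBP1, an intronless copy of PCBP2 in origin, had 1482, 1478, 1307 and 1333 counts on ENST00000303577 and a log2 fold change of -0.02 (-0.13 to 0.09), which was 0.16 on the FPKM scale.

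**Figure D4:**
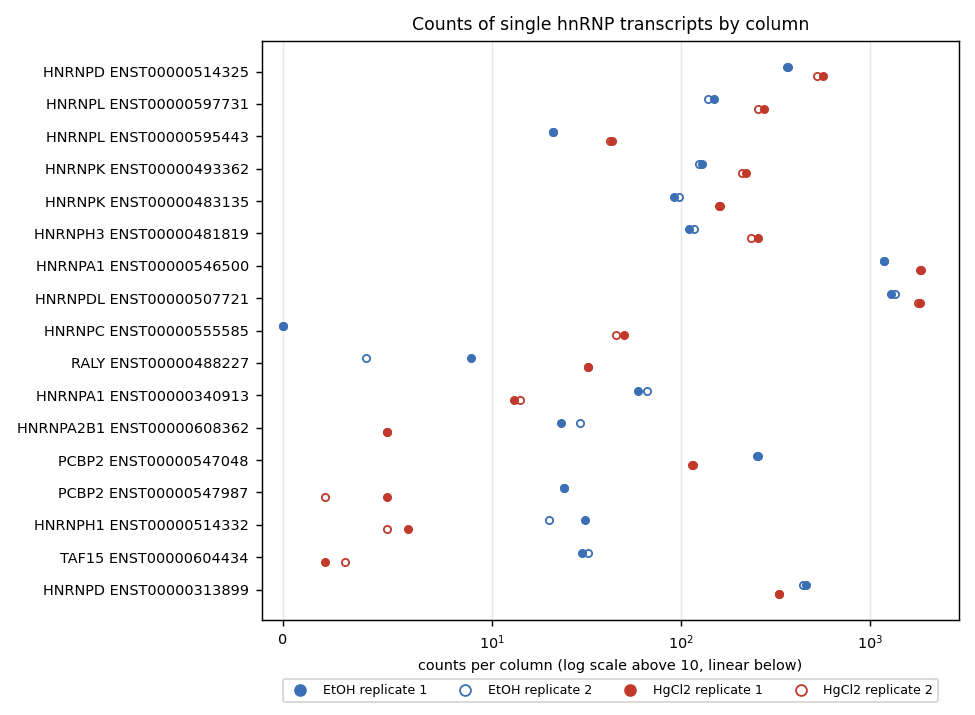
Counts of 17 single hnRNP transcripts (y axis) in each column (x axis, log scale above 10 and linear below), with EtOH in blue, HgCl2 in red, replicate 1 filled and replicate 2 open. The columns of a group lie close together, and in each of these transcripts both HgCl2 columns lie on the same side of both EtOH columns, above them down to RALY and below them from HNRNPA1 ENST00000340913 on. Some of these transcripts were chosen after their values were seen, and the agreement of the columns is no replicate check.

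TARDBP (TDP-43), TAF15 and EWSR1 are prion-like RNA-binding proteins linked to motor neuron disease, and TAF15 and EWSR1 belong to the FET family. TARDBP binds UG repeats and is known to set its own level through its 3′ UTR. It had 40, 44, 50 and 50 counts on the canonical ENST00000240185, which has 0 own bases, and a log2 fold change of 0.39 (-0.23 to 1.02). A retained intron of it with a mean of 1.0 count in EtOH and 5.5 in HgCl2 also passed 2-fold, with an interval from -0.49 to 8.14.

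EWSR1, known from its fusions in Ewing sarcoma, was counted on retained introns only. The leading one, ENST00000469669 (intron 9), had 320, 306, 441 and 395 counts and a log2 fold change of 0.56 (0.35 to 0.78). TAF15, a partner of the general transcription factor TFIID, was also counted on retained introns only, and its sum was lower in both HgCl2 columns, with 168, 151, 97 and 90 counts and -0.62 (-1.01 to -0.25). Its transcripts differed. The leading one, ENST00000603346, which has 0 own bases, had 73, 67, 62 and 52 counts and -0.15 (-0.68 to 0.37), a value that is 0.02 on the FPKM scale.

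The single-exon TAF15 transcript ENST00000604434, with 1916 of its 1918 own bases in intron 1, fell from 30 and 32 to 2 and 3 counts, a log2 fold change of -3.43 (-6.15 to -1.68). It held 19.4% of the TAF15 counts in EtOH and 2.67% in HgCl2. The middle of its longest own stretch is shown because nearly all counts of this transcript were in EtOH, with a T run in capitals.
TAF15 ENST00000604434, chr17:35810764-35810883, plus strand: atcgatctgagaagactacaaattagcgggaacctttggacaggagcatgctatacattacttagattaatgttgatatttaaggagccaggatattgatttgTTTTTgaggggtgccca

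Among the remaining members, SYNCRIP, which acts in mRNA stability and translation, had 656, 648, 515 and 511 counts on ENST00000369622 and -0.20 (-0.37 to -0.03). On the FPKM scale its value was -0.02. HNRNPUL2, a nuclear matrix protein of the DNA damage response, had 1008, 948, 1025 and 1023 counts on ENST00000301785 and 0.21 (0.08 to 0.34). Its relative HNRNPUL1 was the one well-counted sum that fell, with 55, 49, 19 and 17 counts and -1.38 (-2.25 to -0.59). Its leading coding transcript ENST00000595336 had 26, 26, 12 and 10 counts and -1.09 (-2.26 to -0.03).

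HNRNPM, a repressor of exons in the epithelial to mesenchymal switch, fell in sum on few counts, with 20, 19, 8 and 5 counts, at a log2 fold change of -1.42 (-2.98 to -0.10). HNRNPU, the scaffold attachment factor, had 6, 11, 11 and 9 counts and HNRNPR, a relative of SYNCRIP, had 7, 5, 1 and 3. The polypyrimidine tract proteins, repressors of neuronal and muscle exons, were also sparse. PTBP1 had 22, 30, 12 and 11 counts, PTBP2 had 38, 38, 50 and 56 and PTBP3 had 0. The counting intervals are wide at such counts, and low counts here do not show that the genes were silent, since the canonical transcripts of HNRNPM, HNRNPR, HNRNPU, PTBP1 and PTBP3 have 0 own bases.

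Across genes, the share of counts on retained introns could be compared in 9 hnRNP genes that had at least 30 counts in each group and counts on both coding and retained-intron transcripts. It was higher in HgCl2 in 6 of the 9 and in 43.7% of all 1831 such genes, with a median difference of 3.60 percentage points against -0.13. HNRNPA2B1 and TARDBP, among those 6, had most of their counts on transcripts with 0 own bases. Counting intervals of the groups were apart for HNRNPD, HNRNPC and PCBP2, which moved toward the retained intron in the first and second and away from it in the third. A move of at least 10 points was seen in 2 of 9 hnRNP genes, HNRNPD and PCBP2, and in 20.8% of all. The retained-intron share of HNRNPA1 was 15.5% and 16.2%, although its canonical transcript fell.

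**Figure D5:**
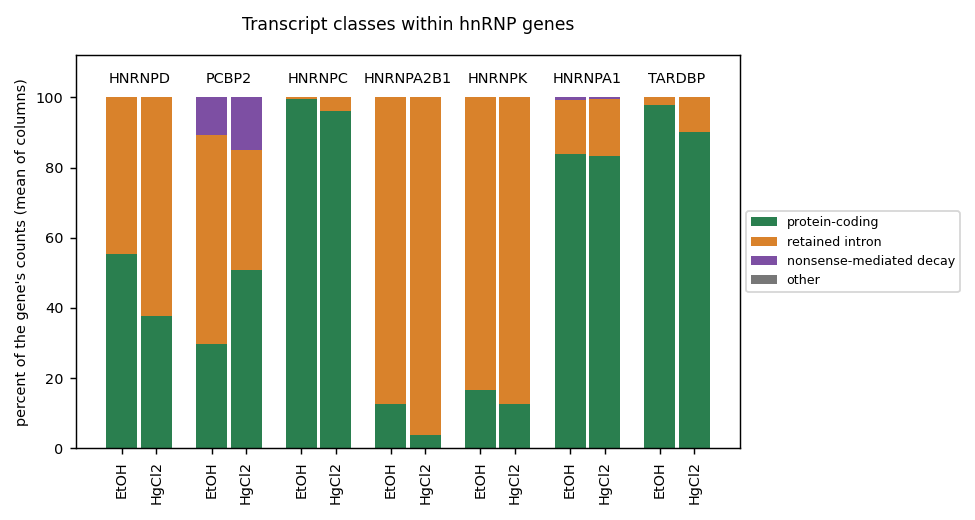
Percent of the mean counts of each gene (y axis) on protein-coding, retained-intron, nonsense-mediated decay and other transcripts in EtOH and HgCl2 (x axis) for 7 hnRNP genes, as stacked bars that start at 0. The retained-intron part grew from 44.8% to 62.3% in HNRNPD and shrank from 59.5% to 34.2% in PCBP2, and was 15.5% and 16.2% in HNRNPA1.

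Motifs that hnRNPs are known to bind were searched as letters on the strand of the transcript, in the middle 120 bases of the longest own stretch of tested retained introns. UAGG, bound by HNRNPA1 and written TAGG here, was in 10 of the 22 hnRNP windows (45.5%) and in 32.3% of all 3515. GGGG was in 18.2% and 20.6%, TCTTC in 9.09% and 15.4%, CCCC in 13.6% and 18.7% and TGTGTG in 4.55% and 6.2%. For 22 windows these shares rest on 1 to 10 matches each and were not tested.

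Genes outside the family serve as a comparison. In a list of 25 related RNA-binding proteins, 20 genes had 57 tested transcripts, with a median log2 fold change of 0.10. Of the 57, 5 rose (8.77%) and 12 fell (21.1%), against 19.2% and 34.1% of all tested transcripts. Of 36 well-counted ones, 4 rose (11.1%) and 3 fell (8.33%), against 15.5% and 9.53% of all well-counted transcripts. Their median was 0.22, next to 0.31 for the hnRNPs. TIAL1, a stress granule protein, rose on ENST00000369086 by 1.42 (1.04 to 1.82) and on the decay isoform ENST00000497671 by 2.04 (1.38 to 2.76).

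QKI, a regulator of splicing and circular RNA, split as HNRNPA1 did, with a rise of ENST00000392127 by 1.32 (0.99 to 1.65) and a fall of ENST00000361752, at -1.41 (-2.21 to -0.68). The paraspeckle genes NONO and PSPC1 each had a retained intron past 2-fold, at -1.07 (-1.86 to -0.32) for NONO ENST00000471419 and at 1.39 (0.68 to 2.14) for PSPC1 ENST00000635251. Of 15 nonsense-mediated decay factors, which act on the isoforms that hnRNPs leave behind when they control their own amount, 11 had 19 tested transcripts. Of the 19, 2 rose (10.5%) and 6 fell (31.6%), against 19.2% and 34.1% of all tested transcripts, with a median of -0.01. Of 9 well-counted ones 0 rose and 1 fell (11.1%), against 15.5% and 9.53% of all well-counted transcripts. The fall was that of SMG5 ENST00000361813, with 95, 103, 40 and 37 counts and -1.22 (-1.80 to -0.67).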

How the data were processed

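RNA-seq of H1299 cells was analysed from tables with 2 columns for each group, assigned by their names. The authors trimmed reads with Trim Galore, aligned them with STAR 2.5.4b to GRCh38 and deposited counts per transcript of the Ensembl annotation, made with Rsubread and not normalized. Counting options, among them the use of strand and of reads that overlap several transcripts, are not given in the sources used here; the TruSeq kit named does not mark strand, although the paper's results call the sequencing directional, so overlapping antisense transcripts are uncertain. The authors made the deposited FPKM values from these counts with DESeq2 1.26.0.

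Log2 fold changes were computed here with edgeR 4.0.16 (quasi-likelihood fit, TMM, R 4.3.3) over all transcripts with a mean FPKM above 1 in a group, and intervals, shares and figures with Python 3.11.15, numpy, pandas, scipy, pysam and matplotlib. Library size and TMM factors together multiplied HgCl2 counts by 1.10 relative to EtOH. A group at 0 counts gives a fold against 3 counts. Names, classes and coordinates are from GENCODE 44, newer than the release used for the counting, which has 223558 of the 227368 identifiers. Total counts of 4720978 to 5053120 a column limit the precision of low values. The labels do not say that the replicates are separate cultures, whereas the paper calls them independent, and columns that agree within sampling noise were counted as 1 sample a group, so no p-value is given.

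The member genes and both comparison lists were chosen with earlier results of these data known. Named are the transcript with the highest mean count of each gene and well-counted transcripts past 2-fold. Other transcripts in the text were chosen after their values were seen. Some items that the rule or the marker list covers are not reported here. Deviations of same-numbered columns from their group means correlated with r = 0.02. This cannot decide whether the numbers pair the columns, since the columns of a group differ by less than sampling noise. The fit was tested on simulated counts. Alternatives changed the scaling, tool, filter, pseudocount, block and gene summing, and left out each column.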

Additional observations from a re-analysis of the deposited data

How the results depend on the processing

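The number of hnRNP gene sums past 2-fold was 4, and 2 when protein-coding transcripts alone were summed. With no filter on low values 15 hnRNP transcripts of 94 rose and 29 fell, instead of 6 and 13 of 60, and of the well-counted ones 6 rose and 1 fell, instead of 3 and 2. Over all transcripts, 27155 of 39729 were then past 2-fold in either direction, instead of 9359 of 17547. On the deposited FPKM scale with a pseudocount of 1 the falling transcripts were 6 and the well-counted ones 5 higher and 1 lower, and with a pseudocount of 0.1 the latter were 6 and 1. With a filter of a mean of at least 10 counts 4 of 52 rose and 8 fell, where 4797 of all 11891 transcripts were past 2-fold in either direction. The median log2 fold change of 0.15 was 0.27 and 0.33 on the FPKM scale with the larger and the smaller pseudocount, 0.080 with the filter of 10 counts, -0.17 with no filter and 0.10 without HNRNPA1 and HNRNPC. The median over all transcripts, -0.21 in the main setting, moved too. It was -0.03 with either pseudocount, 0.007 with the filter of 10 counts and -0.83 with no filter. The number of well-counted transcripts that fell was 1 instead of 2 in DESeq2, with DESeq2 size factors in edgeR, with well-counted set at 100 counts and without HNRNPA1 and HNRNPC. With no filter the log2 fold changes of the 5 well-counted transcripts past 2-fold were all higher than with the filter, such as 1.39 instead of 1.25 for HNRNPH3 ENST00000481819 and -0.87 instead of -1.01 for PCBP2 ENST00000547048. The TMM scaling was computed anew over the transcripts of each filter, and its part in these moves was not tested.

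Leaving out each column in turn gave 4 to 5 gene sums past 2-fold, 6 to 7 transcripts higher and 13 to 14 lower, 2 to 4 well-counted ones higher and 1 to 2 lower, and medians of 0.055 to 0.18. The lowest median came without EtOH replicate 2, and the count of 1 well-counted transcript lower came without EtOH replicate 1. Since the columns of a group differ by less than sampling noise, leaving out a column is no replicate check. The replicate block, used although a pairing of the columns is not known, gave 6 higher and 13 lower and 3 and 2 among the well-counted. It gave a median of 0.15 and 4 gene sums, and changed no call.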
